A study of Mus musculus with 20 samples.

Results

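Fatty acid oxidation breaks fatty acids down to acetyl-CoA, and the 39 mouse genes described here encode its enzymes and carriers together with genes that supply or control it. They were chosen by name from knowledge of the pathway, and with earlier results of these data known. They are genes of mitochondrial and peroxisomal oxidation, fatty acid activation and lipolysis that have been tied to the metabolism of memory T cells. All 39 were found in the count table, which holds 49671 genes. RNA was sequenced from 20 libraries of cultured mouse T cells in 4 groups of 5 libraries each, namely CD8 cells from week 1, CD8 cells from week 4, CD4 cells from week 1 and CD4 cells from week 3. The cells came from spleen and inguinal lymph nodes and were activated with antibodies to CD3 and CD28 in 1 ng/mL IL-2. Polyclonal cells of albino B6 mice were activated for 72 hours and transgenic cells of Marilyn-BLITC and MataHari-BLITC mice for 24 hours. The labels do not say which library came from which cells. All groups were then expanded in 50 ng/mL IL-15 and 10 ng/mL IL-7, for 4 days in both week 1 groups, for 18 days in the CD4 week 3 group and for 25 days in the CD8 week 4 group, and were sorted for CD44 and CD62L. No group without these cytokines and no unsorted group is among the 4, and the long-term groups of the 2 cell types differ in culture time as well as in cell type.

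A fatty acid is first joined to coenzyme A by acyl-CoA synthetases. Long chains then cross into the mitochondrion through the carnitine shuttle, in which Cpt1 enzymes on the outer membrane and Cpt2 on the inner membrane work on either side of a carrier, Slc25a20. Inside, acyl-CoA dehydrogenases, hydratases, hydroxyacyl-CoA dehydrogenases and thiolases act in a repeated spiral, and electrons reach the respiratory chain through the electron transfer flavoprotein and its dehydrogenase. Peroxisomes run a similar spiral on very long and branched chains. In CD8 T cells the pathway is known for its link to memory. IL-15 has been reported to raise Cpt1a and oxidative capacity, and memory cells to feed oxidation from lipid freed in lysosomes by the acid lipase Lipa. Later genetic work questioned how far memory depends on Cpt1a. IL-7 has been reported to drive glycerol uptake through Aqp9 for triglyceride synthesis in memory CD8 cells.

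Sequences upstream of 3 members are shown. Acad10 and Acox3 were higher after long culture in both cell types, and Fabp5, lower in both, had no promoter entry. Hadhb shares its upstream stretch with Hadha, the gene of its partner subunit, and was chosen after the values were seen. No expression result below was drawn from these sequences. They come from RefSeq (GRCm38.p6) and read 5′ to 3′ towards the named gene, and none of the 3 motifs searched (named after the sequences) fell in them, so that no letter is in capitals. The Acad10 stretch is the 48 bases at chr5:121660515-121660562 on the minus strand, between the start of Acad10 and that of Brap on the other strand, in the annotation used for counting. The Acox3 stretch is the 250 bases before the RefSeq start, chr5:35582784-35583033 on the plus strand, inside the span of the antisense gene 4931431C16Rik. The Hadhb stretch is the 85 bases at chr5:30155163-30155247 on the plus strand that lie between the starts of Hadha and Hadhb, which point away from each other.
Acad10: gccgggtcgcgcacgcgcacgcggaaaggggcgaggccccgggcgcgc
Acox3: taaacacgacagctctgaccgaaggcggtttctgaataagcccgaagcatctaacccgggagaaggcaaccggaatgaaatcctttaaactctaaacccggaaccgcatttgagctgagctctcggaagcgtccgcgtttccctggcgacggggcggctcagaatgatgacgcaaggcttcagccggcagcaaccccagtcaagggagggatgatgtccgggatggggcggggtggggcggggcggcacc
Hadhb: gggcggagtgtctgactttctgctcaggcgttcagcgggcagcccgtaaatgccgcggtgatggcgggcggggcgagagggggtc
The GC share was 85.4% in the Acad10 stretch, 60.0% in the Acox3 stretch and 69.4% in the Hadhb stretch. The median GC share was 60.7% over member promoters and 52.7% over all promoters. Those promoters are 300 bases long, unlike the 3 stretches. Of the 39 members, 34 had an entry in the RefSeq promoter table, with 37 promoters of 300 bases, 250 before and 50 after the start. Acaa2, Decr1, Fabp5, Hsd17b4 and Ppargc1b are named only. The estrogen-related receptor element TCAAGGTCA was found on either strand in 1 member promoter (2.70%), that of Acsl6, and in 0.423% of all 32851 promoters. The nuclear receptor hexamer AGGTCA, which the longer element contains, was found in 6 member promoters (16.2%), those of Acadm, Acadvl, Acsl6, Cpt1a, Cpt1c and Echs1, and in 16.3% of all promoters. The E-box CACGTG was found in 0 of the 37 member promoters and in 7.15% of all.

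The libraries held between 13264302 and 28342449 counts. Cd8a and Cd8b1 summed to 988 to 2677 CPM (counts scaled to the same total in every library) in the CD8 libraries and to at most 30.7 CPM in the CD4 libraries, and all 7 T cell markers were detected in every group. Markers of other cells were low: the 7 B cell genes summed to at most 13.1 CPM, 8 monocyte and macrophage genes to at most 23.1 CPM and 6 dendritic cell genes to at most 36.6 CPM, with Cd79b, Cd68 and Itgax the highest genes of each list and these maxima all in CD8 libraries. The 5 erythroid genes had a median sum of at most 0.959 CPM in any group and a maximum of 18.9 CPM in a CD4 week 3 library, and Hba-a1 was the highest of them in that group. The 6 NK cell genes reached 163 to 350 CPM in CD8 libraries through Eomes, which CD8 T cells also express. The titles of the CD8 libraries fall in 2 ranges of numbers, replicates 1 to 3 in one and 4 and 5 in the other, and CD4 titles in a separate range. The sum of 10 proliferation genes lay in ranges of 2194 to 5106 CPM at CD8 week 1, 1142 to 1514 at CD8 week 4, 1748 to 3492 at CD4 week 1 and 318 to 2570 at CD4 week 3. All 10 were called lower in CD8 week 4 and 5 of 10 in CD4 week 3. A pair of libraries stood apart in it: CD8 week 1 replicate 3 was the lowest of its group, and CD4 week 3 replicate 2, at 2570 CPM, lay above the other 4, which reached at most 863 CPM. CD8 week 4 replicates 1 and 2, which had stood apart in earlier results of these data, are left out together where named below. Ribosomal protein genes also took a larger share of counts in long-term libraries, 7.90 to 8.98% against 6.37 to 7.68% in CD8 and 8.17 to 10.2% against 7.07 to 8.01% in CD4. Mitochondrially encoded genes took 1.38 to 2.14% against 1.27 to 1.87% in CD8, and 1.61 to 2.78% against 1.44 to 1.65% in CD4. The part of proliferation, ribosomal protein share or mitochondrial share in any result below was not tested.

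Members were compared with each other only per length, as RPKM, which is CPM divided by the length of the merged exons in kilobases. Together the 39 genes took 0.208 to 0.228% of all counts at CD8 week 1, 0.194 to 0.204% at CD8 week 4, 0.198 to 0.209% at CD4 week 1 and 0.180 to 0.210% at CD4 week 3. Acsl5, a synthetase that activates long-chain fatty acids, had the highest level in all 4 groups, at 107 ± 14.97 RPKM at CD8 week 1, 77.5 ± 12.3 at CD8 week 4, 91.6 ± 13.7 at CD4 week 1 and 73.99 ± 18.7 at CD4 week 3 (SD, n = 5). By the mean over the 4 groups, next came Acadl, the long-chain acyl-CoA dehydrogenase, Hsd17b10, a hydroxyacyl-CoA dehydrogenase that also serves mitochondrial tRNA processing, and Acaa2, a thiolase. Acadl averaged 73.5 ± 9.02 and 45.5 ± 8.98 RPKM in the CD8 groups and 58.4 ± 31.3 and 36.6 ± 8.93 in the CD4 groups. Hsd17b10 stood at 42.3 ± 4.79, 48.9 ± 6.2005, 44.2 ± 3.45 and 44.4 ± 1.66 RPKM in the same order, and Acaa2 at 39.5 ± 3.94, 43.9 ± 4.97, 44.3 ± 2.099 and 49.1 ± 2.43. Hsd17b10 and Acaa2 differed by less than 1 SD at CD8 week 1, CD8 week 4 and CD4 week 1. Etfa, described below, stood above both at CD8 week 1, at 45.6 ± 2.66 RPKM. At the low end stood Acsl6 (at most 0.126 RPKM in any group mean), Cpt1c and Ppara. The per-length level of Echs1 may be too low, since its merged exons in the counting annotation add up to 8286 bases. The same limit holds for members with longer merged exons, namely Acox3 (11521 bases), Acsl1 (10483), Acsl6 (9914), Acad11 (9798) and Hadha (8730). Merged exons of other members may also be longer than the transcripts made. The order of members per length and the family shares below carry this limit.

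**Figure D1:**
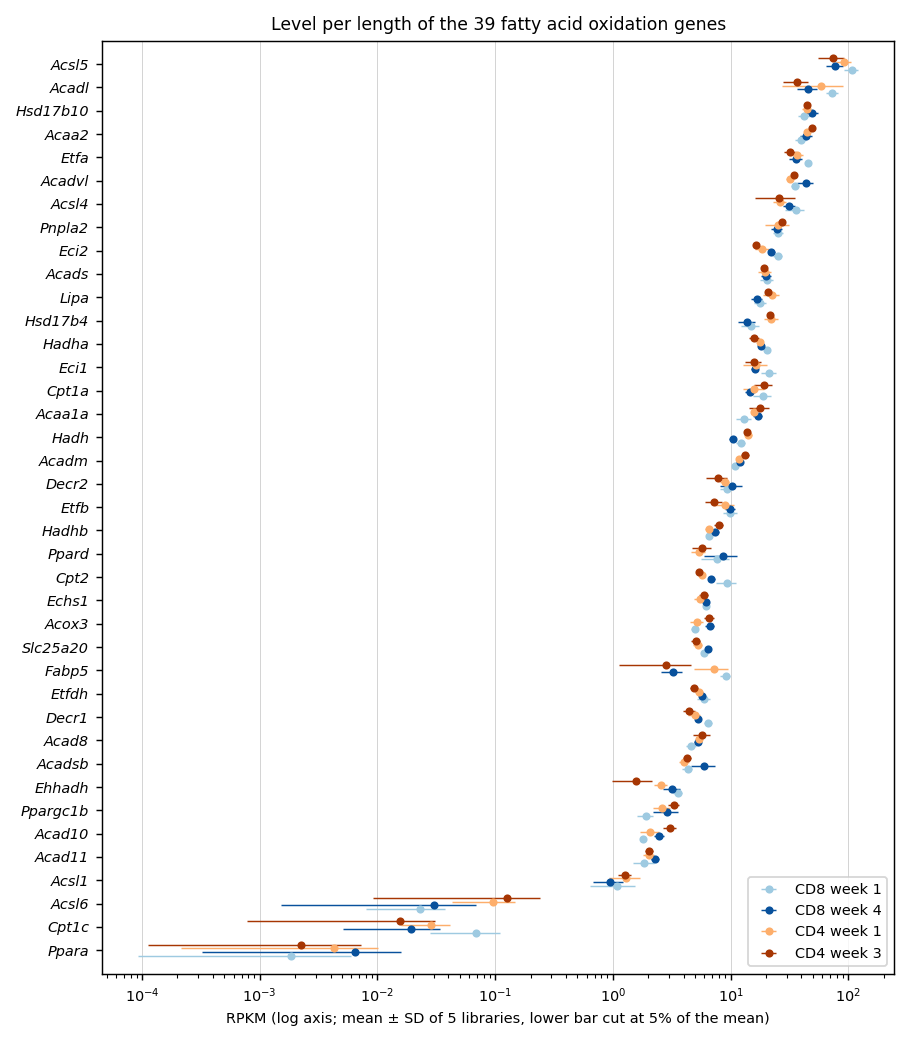
Level of each of the 39 genes in RPKM on a log axis, as mean ± SD of 5 libraries per group, with genes ordered by their mean over the 4 groups. The genes from Acsl5 down to Acsl1 lie between about 1 and 100 RPKM, and Acsl6, Cpt1c and Ppara lie far below them.

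Within 2 enzyme families 1 member carried most of the per-length level. Of the 5 long-chain synthetases (Acsl1, Acsl3, Acsl4, Acsl5 and Acsl6), Acsl5 made up 59.7 to 76.3% at CD8 week 1, 63.1 to 72.9% at CD8 week 4, 66.2 to 79.1% at CD4 week 1 and 58.003 to 76.7% at CD4 week 3. Acsl4, which prefers arachidonic acid, made up most of the rest, 18.96 to 34.5%, 22.1 to 31.8%, 15.5 to 23.9% and 19.3 to 35.7% in the same order. Of the 3 Cpt1 genes, the liver-type Cpt1a made up 98.6 to 99.4%, 98.8 to 99.8%, 98.8 to 99.7% and 99.5 to 99.9%, with the muscle-type Cpt1b never above 1.198%. Cpt1c, known from brain, stood at 0.176 to 0.775 CPM at CD8 week 1 and at most 0.161 CPM in the mean of any other group. Ppara, the receptor that drives oxidation genes in liver, was all but silent: its 5 libraries per group held 1 count in all at CD8 week 1, 3 at CD8 week 4, 2 at CD4 week 1 and 1 at CD4 week 3, at or under the floor of 3 counts over a group (0.0260 to 0.0321 CPM). Cpt1c and Ppara did not pass the filter on low counts and were not tested. The other 37 members passed it, and counts of called members below are out of these 37.

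After long culture, a minority of the tested members changed in either cell type, in both directions. In CD8 cells 6 members were higher and 8 lower at week 4 than at week 1 (edgeR quasi-likelihood test, adjusted p under 0.05 over 13290 genes), 16.2% and 21.6% of 37, where 17.1% of all genes tested were called higher and 16.4% lower. With upper-quartile factors the split was 9 higher and 6 lower (40.5% of members called, beside 34.1% of all genes). All genes moved the same way: of those called, 56% were higher in that fit and 50.9% in the main fit. Within the first title range (3 libraries against 3) 1 of 36 members was called (2.78%, beside 4.17% of all genes in the same fit) and within the second (2 against 2) 13 of 36 (36.1%, beside 49.2%). Of the 14 members, 13 kept their sign in both, the exception being Acadvl. The 2 ranges are parts of the libraries that picked the 14, so that kept signs are no separate support. The share of all called genes that kept their sign was not taken. The count was 9 (24.3%, beside 26.9% of all genes) on leaving out CD8 week 4 replicate 4, and 8 (21.6%, beside 29.3%) on leaving out replicates 1 and 2 of that group together. In CD4 cells 3 members were higher and 2 lower at week 3, 8.11% and 5.41%, beside 7.67% and 8.8% of all genes. The count of 5 was 3 (8.11%) without CD4 week 3 replicate 3 or 4, where 8.28% and 8.11% of all genes were called. Without CD4 week 3 replicate 2 it was 10 (27%, beside 27.1% of all genes). That fit also called Acsl5 (-0.47, adjusted p = 0.0147), Acadm (0.21, adjusted p = 0.0291), Acadl (-0.84, adjusted p = 0.0195), Hadha (-0.20, adjusted p = 0.00835) and Acaa1a (0.28, adjusted p = 0.0428), in the sign they had over all libraries. The median log2 fold change of the members was -0.03 in CD8, against 0.03 over all genes, and -0.03 in CD4, against 0.01. Fabp5, Acad10 and Acox3 were called in the same direction in both cell types, which share no library: 21.4% of the 14 members called in CD8 and 60% of the 5 called in CD4, beside 32.9% and 66.9% for all genes called. In bulk RNA fewer cells with a transcript and less of it per cell cannot be told apart. Since nothing in the labels says that libraries came from separate animals or cultures, the p-values reflect the spread among these libraries alone, which may be technical.

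**Figure D2:**
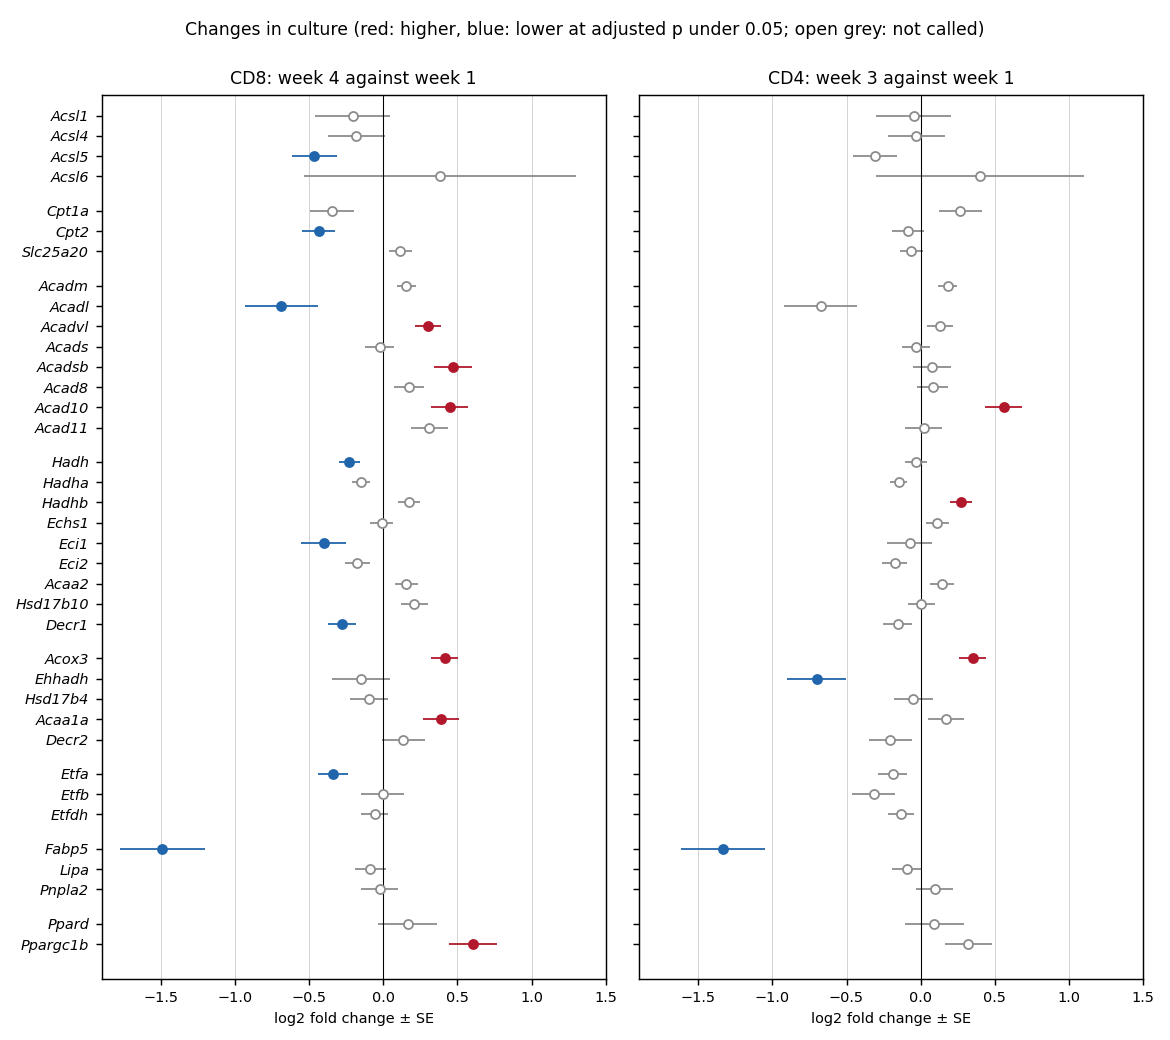
Log2 fold change ± SE of the 37 tested members, CD8 week 4 against week 1 on the left and CD4 week 3 against week 1 on the right, grouped by role from activation (top) to regulators (bottom). Fabp5 lies farthest to the left in both panels, and Acad10 and Acox3 are red in both.

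Fatty acid binding and lipolysis held the member with the largest fall. Fabp5, a cytosolic carrier of fatty acids, stood at 37.96, 31.2, 31.8, 30.8 and 30.04 CPM in replicates 1 to 5 at CD8 week 1 and at 12.04, 10.98, 15.1, 10.7 and 8.75 CPM at week 4 (values by library are in this replicate order throughout). Every week 4 library lay below every week 1 library, a 2.81-fold fall (log2 fold change -1.49 ± 0.29 SE, adjusted p = 0.00110). In CD4 cells Fabp5 went from 21.1, 17.03, 29.6, 22.4 and 37.8 CPM to 9.07, 20.9, 5.53, 7.06 and 8.1996 CPM (log2 fold change -1.33 ± 0.29, adjusted p = 0.00595). Replicate 2 of CD4 week 3, the library with high proliferation genes, overlapped the week 1 range, and without it the log2 fold change was -1.78 (adjusted p = 3.46e-05). Pnpla2, the first lipase of triglyceride breakdown, stood at 69.02, 88.3, 77.8, 71.1 and 75.5 CPM at CD8 week 1 and 70.7, 74.9, 63.99, 80.8 and 84.5 at week 4. At CD4 week 1 it stood at 81.2, 98.7, 82.4, 71.2 and 50.9 CPM and at week 3 at 75.3, 83.8, 87.6, 76.7 and 86.8. Its groups overlapped and neither comparison was called (-0.03 ± 0.13 and 0.09 ± 0.13). Lipa, the lysosomal acid lipase, stood at 48.5, 45.1, 60.1, 57.6 and 53.98 CPM at CD8 week 1 and 44.5, 44.2, 52.5, 56.5 and 51.9 at week 4. Its CD4 libraries read 78.6, 54.9, 67.8, 73.1 and 57.8 CPM at week 1 and 64.1, 58.7, 63.4, 62.8 and 62.6 at week 3. Lipa was called in neither culture comparison (log2 fold changes -0.09 ± 0.10 and -0.09 ± 0.10).

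Among the 4 synthetases, Acsl5 fell in CD8 cells. Its 5 libraries read 365, 349, 253, 357 and 359.6 CPM at CD8 week 1 and 216, 206, 259, 237 and 303 at week 4 (log2 fold change -0.47 ± 0.15, adjusted p = 0.0250). Replicate 3 of week 1 lay among the week 4 values, and the other 4 week 1 libraries lay above them. The call was lost when CD8 week 4 replicates 1 and 2 were left out together (-0.34, adjusted p = 0.152), and also on leaving out CD8 week 1 replicate 1, 4 or 5 or CD8 week 4 replicate 1, 2 or 4 (-0.41 to -0.45, adjusted p = 0.0516 to 0.0610). In CD4 cells Acsl5 read 265, 287, 363, 274 and 254 CPM at week 1 and 232, 334, 211, 196 and 192 at week 3, which was not called (-0.31 ± 0.15, adjusted p = 0.165). Acsl6, a synthetase best known from brain, was close to the detection limit in CD8 cells, at 0.104, 0.119, 0.469, 0.212 and 0.226 CPM at week 1 and 0.0357, 0, 0.932, 0.402 and 0.131 at week 4. It reached 1.45, 0.141, 0.950, 1.33 and 0.833 CPM at CD4 week 1 and 0.447, 2.07, 0.386, 0.456 and 2.87 at week 3. Acsl1 ranged from 6.42 to 19.7 CPM over all 20 libraries and Acsl4 from 93.1 to 251 CPM, and neither was called in culture.

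In the carnitine shuttle Cpt2 was the called member. It stood at 24.6, 25.9, 15.1, 23.1 and 22.5 CPM at CD8 week 1 and 16.2, 17.97, 16.3, 16.6 and 15.1 at week 4, a fall of 1.35-fold (log2 fold change -0.44 ± 0.11, adjusted p = 0.00597). Replicate 3 of week 1 was as low as the week 4 libraries, and the other 4 lay above all of them. In CD4 cells Cpt2 was already low, 14.5, 13.9, 13.6, 13.03 and 13.1 CPM at week 1, and stood at 12.1, 13.6, 13.3, 12.5 and 12.8 CPM at week 3 (-0.08 ± 0.11, adjusted p = 0.625). Cpt1a, which catalyses the entry step, read 78.6, 77.9, 59.2, 93.3 and 93.4 CPM at CD8 week 1 and 64.01, 65.2, 63.4, 70.1 and 54.1 at week 4. Replicate 3 was again the lowest at week 1, and the change was not called (log2 fold change -0.35 ± 0.15, adjusted p = 0.0796), although it was called without that replicate (-0.44, adjusted p = 0.0216) and when only the CD8 groups were fitted (-0.36, adjusted p = 0.0476). Within the first title range the change of Cpt1a was -0.18, adjusted p = 0.471, and within the second -0.61, adjusted p = 0.00921. At CD4 week 1 Cpt1a read 58.2, 59.5, 69.99, 92.8 and 62.7 CPM and at week 3 91.5, 77.6, 84.4, 99.4 and 60.5 CPM, with overlap and no call (0.27 ± 0.15, adjusted p = 0.214). Slc25a20, the carnitine-acylcarnitine carrier, read 27.7, 29.4, 30.6, 26.7 and 29.4 CPM at CD8 week 1 and 32.8, 32.1, 29.4, 29.9 and 31.5 at week 4. Its CD4 libraries read 25.5, 28.97, 25.5, 24.7 and 23.2 CPM at week 1 and 25.997, 21.6, 26.6, 25.6 and 22.7 at week 3. Neither change of Slc25a20 was called (0.11 ± 0.08 and -0.06 ± 0.08).

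**Figure D3:**
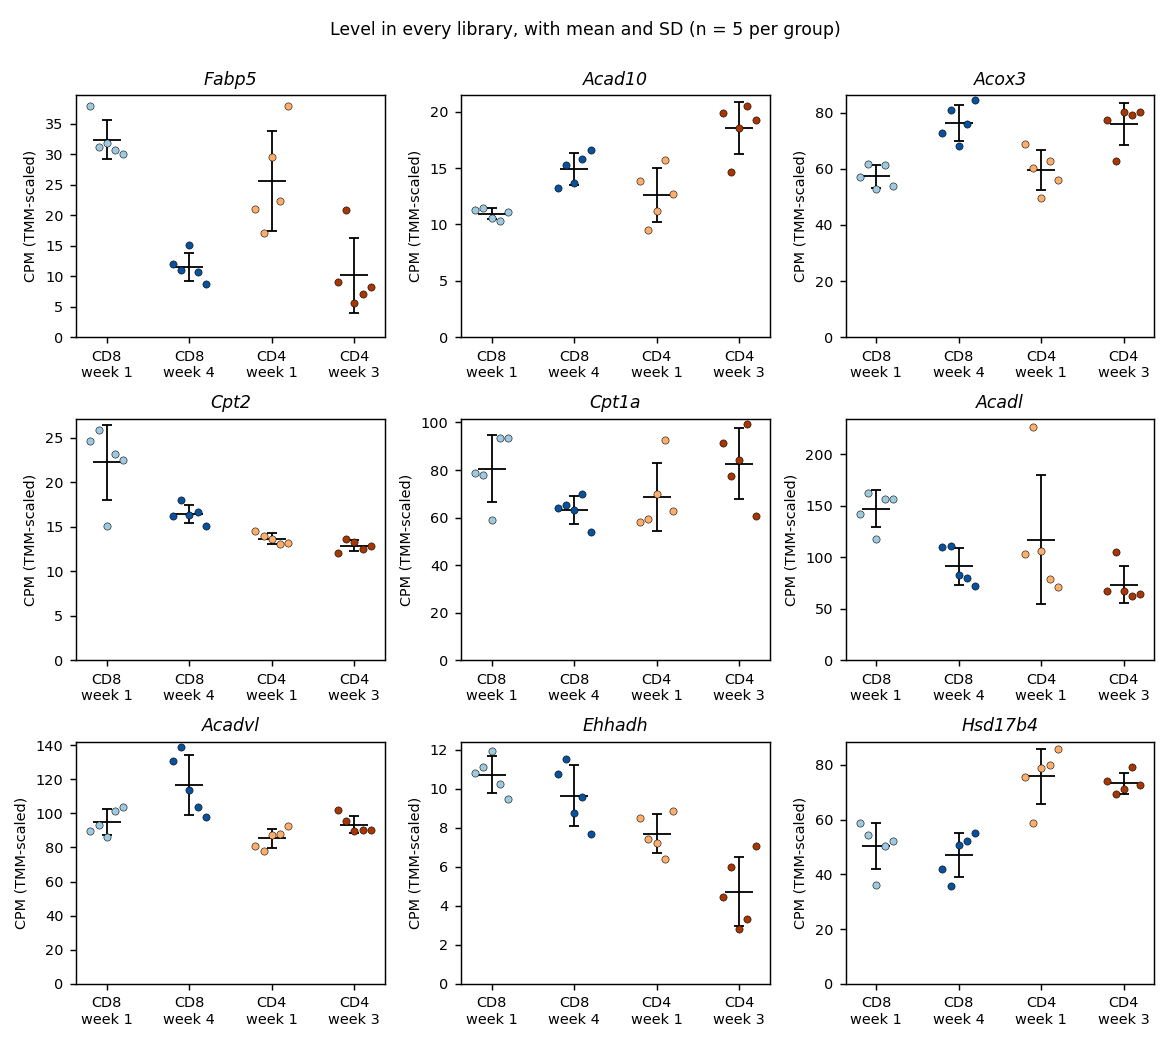
CPM of 9 members in every library (points, in replicate order within each group) with the group mean and SD (n = 5), on axes that start at 0. Fabp5 is lower in the long-term groups of both cell types, Cpt2 is highest at CD8 week 1 apart from replicate 3, and Hsd17b4 is higher in CD4 than in CD8 libraries.

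The 8 acyl-CoA dehydrogenases, which start each round of the spiral and differ in the chains they take, split in CD8 cells. Acadsb (short branched chains), Acad10 and Acadvl (very long chains) were called higher and Acadl (long chains) lower. Acadvl stood at 89.5, 93.3, 86.2, 102 and 104 CPM at CD8 week 1 and 131, 139, 114, 104 and 97.7 at week 4 (log2 fold change 0.30 ± 0.09, adjusted p = 0.0150). Week 4 replicates 1 and 2 were the highest, replicates 4 and 5 lay within the week 1 range, and without the first 2 the change was 0.15 (adjusted p = 0.181). Between replicates 4 and 5 of each group, which form the second title range, it was -0.05 (adjusted p = 0.536). The call of Acadvl was also lost when only the CD8 groups were fitted (0.28, adjusted p = 0.0600). Acadsb read 28.9, 30.9, 36.3, 30.1 and 28.8 CPM at week 1 and 54.1, 52.998, 34.3, 41.1 and 32.5 at week 4 (0.47 ± 0.13, adjusted p = 0.00937). The same 2 libraries were its highest, and without them the change was 0.22 (adjusted p = 0.137). In CD4 cells Acadvl read 81.03, 78.2, 87.1, 87.9 and 92.4 CPM at week 1 and 102, 95.3, 89.8, 90.1 and 90.4 at week 3 and was not called (0.13 ± 0.09, adjusted p = 0.313). Acadsb stood at 33.4, 27.1, 25.9, 29.9 and 29.2 CPM at CD4 week 1 and 31.04, 29.1, 29.4, 29.5 and 34.7 at week 3 (0.08 ± 0.13, adjusted p = 0.697).

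Acad10, an acyl-CoA dehydrogenase that also carries a kinase-like domain, rose in both cell types. Its libraries read 11.3, 11.4, 10.6, 10.3 and 11.1 CPM at CD8 week 1 and 13.3, 15.3, 13.7, 15.8 and 16.6 at week 4, a 1.36-fold rise with no overlap (log2 fold change 0.45 ± 0.12, adjusted p = 0.0101). In CD4 cells they read 13.9, 9.55, 11.2, 15.7 and 12.7 CPM at week 1 and 19.9, 14.7, 18.5, 20.5 and 19.3 at week 3, a 1.47-fold rise (0.56 ± 0.12, adjusted p = 0.00672). Week 3 replicate 2 was the lowest of its group and fell within the week 1 range, while the other 4 lay above it. Acad12, the neighbouring gene on the same strand, 2087 bases beyond the end of Acad10 and not a member, was also called higher in both. Its CD8 libraries read 4.2003, 3.58, 1.11, 2.76 and 3.69 CPM at week 1 and 5.93, 5.35, 5.85, 4.99 and 5.57 at week 4 (log2 fold change 0.85 ± 0.26, adjusted p = 0.0161). Its CD4 libraries read 3.69, 2.96, 3.499, 4.03 and 3.58 CPM at week 1 and 7.37, 3.74, 6.896, 8.25 and 7.78 at week 3 (0.94 ± 0.25, adjusted p = 0.0189). The pairing of these neighbours was noticed after their values were seen.

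Acadl, though among the highest per length, was uneven between libraries. It ranged from 118 to 163 CPM at CD8 week 1 and 72.3 to 111 at week 4, with no overlap (log2 fold change -0.69 ± 0.25, adjusted p = 0.0378). The CD8 call did not hold on leaving out CD8 week 1 replicate 1, 2, 4 or 5 or CD8 week 4 replicate 3, 4 or 5 (-0.62 to -0.70, adjusted p = 0.0583 to 0.0896). In CD4 cells Acadl ranged from 71.7 to 226 CPM at week 1 and from 62.2 to 105 at week 3 (-0.67 ± 0.25, adjusted p = 0.0673). It passed on leaving out CD4 week 3 replicate 2 or CD4 week 1 replicate 4 or 5 (-0.79 to -0.84, adjusted p = 0.0195 to 0.0410). CD4 week 1 replicate 2, at 226 CPM, lay far above the other 4, and without it the CD4 change was -0.29 (adjusted p = 0.266). Acadm, the medium-chain dehydrogenase, stood at 41.1, 43.5, 40.2, 43.1 and 43.97 CPM at CD8 week 1 and 50.5, 47.3, 46.1, 47.4 and 44.4 at week 4. In CD4 cells it read 47.2, 43.1, 42.9, 48.03 and 48.7 CPM at week 1 and 53.2, 48.5, 48.5, 51.9 and 58.8 at week 3. Its CD8 groups did not overlap, and neither change was called (0.15 ± 0.06, adjusted p = 0.0743, and 0.18 ± 0.06, adjusted p = 0.0602). Acads (short chains), Acad8 (a valine breakdown enzyme) and Acad11 were not called in either cell type, with log2 fold changes from -0.03 to 0.31, although Acad11 in CD8 cells passed on leaving out CD8 week 1 replicate 1 or 2 (0.36 to 0.38, adjusted p = 0.0331 to 0.0483).

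Of the 9 members of the later spiral steps, 3 fell in CD8 cells and 0 rose (33.3% and 0% of 9, beside 16.4% and 17.1% of all genes). Hadh, the short-chain hydroxyacyl-CoA dehydrogenase, read 60.9, 64.4, 52.2, 63.4 and 62.6 CPM at CD8 week 1 and 54.8, 48.8, 47.9, 53.9 and 53.2 at week 4 (log2 fold change -0.23 ± 0.07, adjusted p = 0.0194). Replicate 3 of week 1 overlapped week 4, and the others lay above it. Its call was lost on leaving out CD8 week 1 replicate 2 (-0.21, adjusted p = 0.0501). Leaving out CD8 week 4 replicates 1 and 2 together also ended it (-0.23, adjusted p = 0.0515). In CD4 cells Hadh read 64.8, 69.2, 66.8, 75.98 and 75.3 CPM and 66.8, 75.4, 64.5, 66.01 and 71.9 CPM and was not called (-0.03 ± 0.07). Decr1, the dienoyl-CoA reductase for unsaturated chains, read 23.6, 28.3, 23.9, 24.5 and 24.3 CPM at CD8 week 1 and 21.1, 19.2, 20.8, 20.5 and 21.1 at week 4, every library lower (-0.28 ± 0.10, adjusted p = 0.0321). That call ended on leaving out CD8 week 1 replicate 2 or 4 or CD8 week 4 replicate 2 or 4 (-0.23 to -0.28, adjusted p = 0.0520 to 0.0930). It also ended without both CD8 week 4 replicates 1 and 2 (-0.26, adjusted p = 0.0973). Decr1 read 18.9, 16.2, 21.8, 21.2 and 18.002 CPM and 17.6, 20.1, 17.9, 14.6 and 16.02 CPM in the CD4 groups and was not called there (-0.16 ± 0.10). Eci1, an enoyl-CoA isomerase, ranged over 19.4 to 27.5 CPM at CD8 week 1 and 15.6 to 18.98 CPM at week 4 (-0.40 ± 0.15, adjusted p = 0.0478). Of 23 alternative fits 16 lost this call, among them those leaving out CD8 week 1 replicate 1, 2 or 5 or CD8 week 4 replicate 1, 2, 3, 4 or 5 (-0.33 to -0.43, adjusted p = 0.0537 to 0.125). Another was that without both CD8 week 4 replicates 1 and 2 (-0.45, adjusted p = 0.0740). The related isomerase Eci2 read 60.1, 71.5, 71.1, 61.8 and 63.8 CPM at CD8 week 1 and 59.4, 63.9, 53.1, 57.02 and 56.98 at week 4. In CD4 cells it read 54.9, 56.5, 44.99, 44.3 and 43.1 CPM at week 1 and 41.9, 47.8, 43.1, 41.1 and 42.3 at week 3. Neither change of Eci2 was called (-0.18 ± 0.08 and -0.17 ± 0.08). Echs1, Acaa2 and Hsd17b10 were called in neither cell type, with log2 fold changes from -0.01 to 0.21. In CD8 cells Hsd17b10 passed on leaving out CD8 week 1 replicate 3 or CD8 week 4 replicate 3 or 5 (0.25 to 0.28, adjusted p = 0.0131 to 0.0450), and Acaa2 on leaving out CD8 week 4 replicate 2 (0.21, adjusted p = 0.0427).

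The trifunctional protein, which carries out the last steps for long chains, is built of an alpha subunit from Hadha and a beta subunit from Hadhb, whose genes start 85 bases apart on opposite strands (the Hadhb stretch printed above). Hadha read 174, 174, 173, 184 and 179 CPM at CD8 week 1 and 158, 162, 163, 154 and 159 at week 4, all lower without reaching the threshold (log2 fold change -0.15 ± 0.06, adjusted p = 0.0504) except on leaving out CD8 week 1 replicate 3 (-0.16, adjusted p = 0.0417) and under 5 other alternatives. In CD4 cells Hadha read 159, 151, 155, 159.9 and 147 CPM and 143, 159, 135, 126 and 132 CPM at week 1 and week 3 (-0.15 ± 0.06, adjusted p = 0.0810). Hadhb had the opposite sign and read 45.1, 41.4, 43.1, 41.4 and 44.9 CPM and 48.04, 44.7, 54.6, 48.5 and 47.9 CPM in CD8 cells (0.17 ± 0.07, adjusted p = 0.0758). In CD4 cells Hadhb read 42.1, 39.4, 45.1, 47.3 and 42.4 CPM at week 1 and 51.7, 45.1, 58.1, 55.3 and 51.1 at week 3, a called rise (0.27 ± 0.07, adjusted p = 0.0195) that did not pass on leaving out CD4 week 3 replicate 3 or 4 (0.23 to 0.25, adjusted p = 0.0583 to 0.0662). Nor did this rise pass when only the CD4 groups were fitted (0.26, adjusted p = 0.0676). The ratio of Hadhb to Hadha counts within a library does not depend on library scaling. It was 0.259, 0.238, 0.250, 0.225 and 0.251 at CD8 week 1 and 0.304, 0.276, 0.334, 0.315 and 0.301 at week 4. In CD4 cells it was 0.265, 0.261, 0.292, 0.296 and 0.289 at CD4 week 1 and 0.362, 0.283, 0.429, 0.440 and 0.386 at CD4 week 3. The CD8 groups did not overlap, and in CD4 cells 4 of 5 week 3 libraries lay above every week 1 library, the exception being replicate 2. This ratio was chosen after the values were seen and was not tested.

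**Figure D4:**
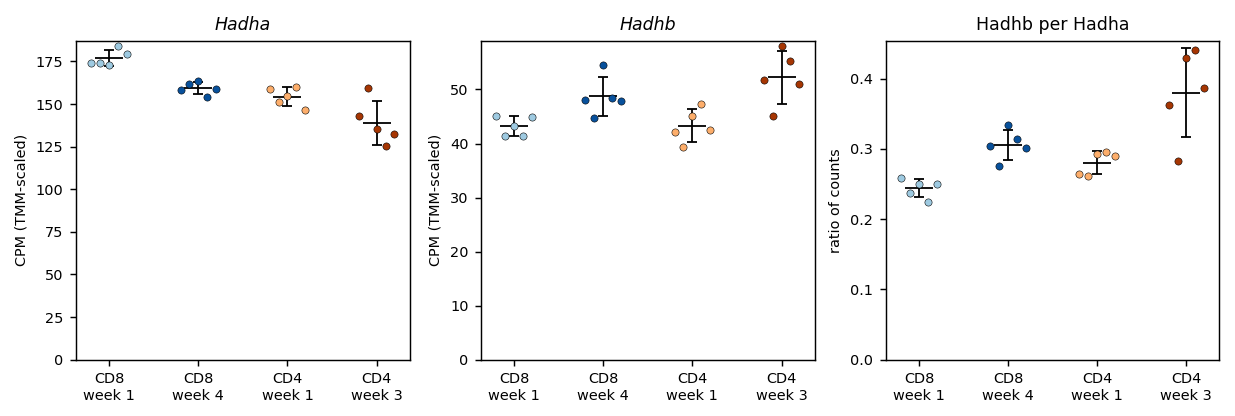
CPM of Hadha and Hadhb and the ratio of their counts in every library (points), with mean and SD (n = 5 per group), on axes that start at 0. The ratio lies at 0.225 to 0.259 at CD8 week 1 and at 0.276 to 0.334 at CD8 week 4, and it reaches 0.440 at CD4 week 3.

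Peroxisomal enzymes included Acox3, an acyl-CoA oxidase for branched chains, which rose in both cell types. Acox3 read 57.1, 61.8, 52.9, 61.2 and 53.8 CPM at CD8 week 1 and 72.9, 80.8, 68.1, 75.8 and 84.5 at week 4, a 1.33-fold rise with no overlap (log2 fold change 0.41 ± 0.09, adjusted p = 0.00249). In CD4 cells it read 68.8, 60.3, 49.7, 62.6 and 56.1 CPM at week 1 and 77.5, 62.8, 80.3, 79.1 and 80.1 at week 3 (0.35 ± 0.09, adjusted p = 0.0149). Here too week 3 replicate 2 was the lowest of its group and inside the week 1 range, and without it the change was 0.41 (adjusted p = 0.00144). The CD4 call of Acox3 was lost when only the CD4 groups were fitted (0.34, adjusted p = 0.0513). Ehhadh, the peroxisomal bifunctional enzyme of straight chains, fell in CD4 cells, from 8.51, 7.43, 7.25, 6.41 and 8.88 CPM to 4.47, 5.98, 2.83, 3.33 and 7.06 CPM (-0.70 ± 0.20, adjusted p = 0.0241). Replicate 5 of week 3 overlapped week 1, and the call was lost on leaving out CD4 week 3 replicate 1, 3 or 4 or CD4 week 1 replicate 5 (-0.56 to -0.68, adjusted p = 0.0516 to 0.0709). Fitting only the CD4 groups also ended it (-0.71, adjusted p = 0.0837). At CD8 week 1 Ehhadh read 10.8, 11.1, 11.96, 10.3 and 9.49 CPM and at week 4 10.8, 11.5, 8.75, 9.57 and 7.66 CPM, not called (-0.15 ± 0.20). Acaa1a, a peroxisomal thiolase, rose in CD8 cells, with libraries at 45.3 to 67.3 CPM at week 1 and 67.8 to 85.6 CPM at week 4 (0.39 ± 0.12, adjusted p = 0.0194), and missed the threshold on leaving out CD8 week 4 replicate 4 (0.34, adjusted p = 0.0555). Its reads may be shared with the near-identical Acaa1b, so that its level is uncertain. Decr2 and Hsd17b4 were called in neither culture comparison.

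The electron transfer flavoprotein has an alpha subunit, Etfa, and a beta subunit, Etfb. Etfa read 82.6, 79.4, 82.6, 81.6 and 92.1 CPM at CD8 week 1 and 65.5, 57.95, 80.8, 64.1 and 62.03 at week 4, lower in 4 of 5 libraries than any at week 1 (log2 fold change -0.34 ± 0.10, adjusted p = 0.0137). The Etfa call did not hold on leaving out week 4 replicates 1 and 2 together (-0.28, adjusted p = 0.0776). In CD4 cells Etfa read 57.01, 61.99, 78.1, 66.8 and 71.8 CPM and 57.04, 70.2, 56.1, 59.1 and 52.1 CPM and was not called (-0.19 ± 0.10). Etfdh, which passes the electrons to ubiquinone, read 46.2, 46.4, 34.4, 49.05 and 47.1 CPM at CD8 week 1 and 46.6, 42.1, 41.8, 43.8 and 39.8 at week 4. At CD4 week 1 it read 38.96, 38.2, 41.1, 37.99 and 45.5 CPM and at week 3 34.4, 40.6, 34.7, 35.3 and 39.4. The groups of Etfdh overlapped and neither change was called (-0.06 ± 0.09 and -0.13 ± 0.09). Etfb ranged from 6.38 to 13.1 CPM over the 20 libraries and was called in neither.

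Of the regulators, Ppargc1b, a coactivator of mitochondrial genes, rose in CD8 cells. It read 8.82, 7.09, 5.92, 8.27 and 7.75 CPM at week 1 and 8.25, 9.24, 11.8, 14.4 and 13.97 at week 4, a 1.52-fold rise (log2 fold change 0.60 ± 0.16, adjusted p = 0.00866). Week 4 replicate 1 overlapped week 1, and the other 4 libraries lay above it. In CD4 cells Ppargc1b read 10.7, 9.12, 8.95, 10.4 and 13.4 CPM and 12.1, 12.6, 13.4, 12.03 and 15.6 CPM and was not called (0.32 ± 0.16, adjusted p = 0.168). Ppard, a widely expressed receptor of the Ppara family, read 26.3, 30.8, 29.1, 43.9 and 47.95 CPM at CD8 week 1 and 47.3, 57.9, 33.2, 32.5 and 28.7 at week 4. Over all libraries it was not called (0.16 ± 0.20), and the 2 title ranges of the CD8 libraries went opposite ways. The change was 0.67 (adjusted p = 0.119) within replicates 1 to 3 and -0.60 (adjusted p = 0.00391) within replicates 4 and 5. In CD4 cells Ppard read 28.6, 28.1, 21.2, 22.02 and 24.5 CPM and 22.8, 34.2, 23.04, 24.1 and 28.6 CPM (0.09 ± 0.20).

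Whether the change in culture differed between CD8 and CD4 cells was tested as an interaction. By edgeR 0 of 37 members were called higher and 0 lower, beside 0.248% and 0.406% of all genes. DESeq2 and limma-voom also called 0 members, beside 2.52% and 0.549% of all genes. With shares this low, 0 of 37 says little about the members. At an unadjusted p under 0.05 there were 3: Cpt1a (difference -0.61 ± 0.21, adjusted p = 0.211), Cpt2 (-0.35 ± 0.16, adjusted p = 0.379) and Acadsb (0.39 ± 0.18, adjusted p = 0.405). The share of all genes at that unadjusted threshold was not taken, so the count of 3 is not read as a result. Without CD8 week 1 replicate 3, the library that was low in Cpt1a and Cpt2, the difference of Cpt2 was called (-0.46, adjusted p = 0.0209) and that of Cpt1a was -0.70 (adjusted p = 0.0675). A call in 1 cell type alone, as for Hadh, Etfa or Ehhadh, was thus not shown to be a difference between cell types.

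The level of members in CD8 cells was then set against that in CD4 cells at each stage. At week 1, 6 members were higher and 4 lower in CD8 than in CD4 cells (16.2% and 10.8% of 37), beside 19.1% and 19% of all genes. In CD8 week 4 against CD4 week 3, 10 were higher and 4 lower (27% and 10.8%), beside 17.7% and 15%. The count of 14 became 8 (21.6%, beside 26.3% of all genes in the same fit) without CD8 week 4 replicate 2, 9 (24.3%, beside 25.5%) without replicate 1 and 5 (13.5%, beside 18.9%) without both. It became 20 (54.1%, beside 40.4% of all genes) without CD4 week 3 replicate 2, where Cpt1a, Acadm, Acad8 and Acad10 were called lower and Decr1, Etfdh and Fabp5 higher in CD8 cells, with Fabp5 at 0.62, adjusted p = 0.0260 and Cpt1a at -0.41, adjusted p = 0.0480. At week 1 Acadl was called higher in CD8 cells on leaving out CD4 week 1 replicate 2 (0.71, adjusted p = 0.00376). Both comparisons called 7 members in the same direction and 0 in opposite ones: Cpt2, Hadha, Eci2 and Ppard higher in CD8, and Hadh, Hsd17b4 and Lipa lower. That is 70% of the 10 and 50% of the 14, beside 59.7% and 69.6% for all genes called. The CD8 and CD4 libraries carry separate ranges of title numbers, so that cell type and any difference between those ranges cannot be told apart.

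**Figure D5:**
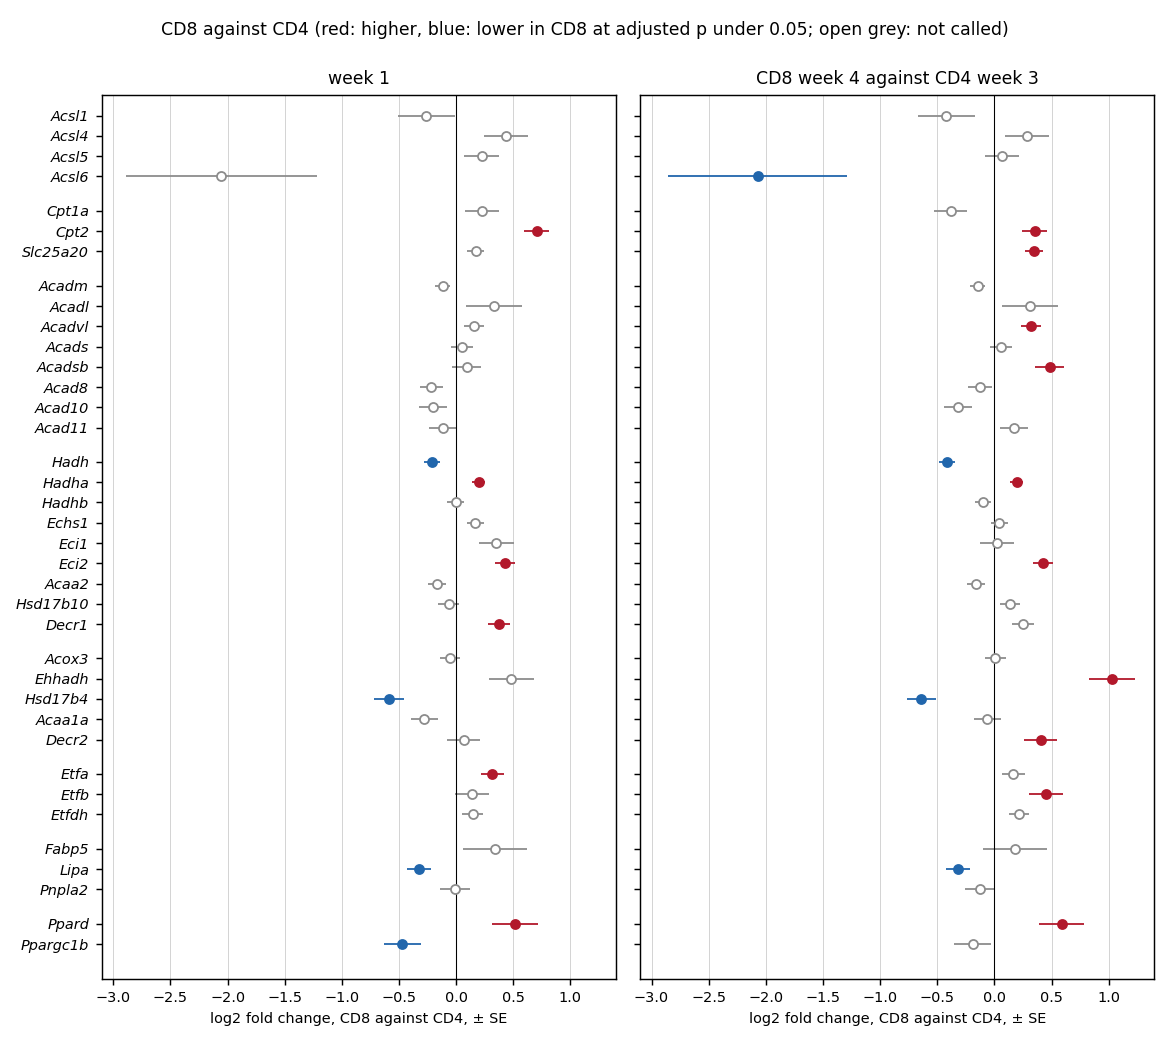
Log2 fold change ± SE of the 37 tested members in CD8 against CD4 cells, at week 1 on the left and in the long-term groups on the right, grouped by role. Cpt2, Hadha, Eci2 and Ppard are red in both panels, and Hadh, Hsd17b4 and Lipa are blue in both.

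Cpt2 showed the largest called difference at week 1 among members higher in CD8 cells, 1.63-fold (log2 fold change 0.71 ± 0.11, adjusted p = 8.87e-05), and was 1.28-fold higher in the long-term groups (0.35 ± 0.11, adjusted p = 0.0192). In both comparisons every CD8 library lay above every CD4 library, but the long-term call was lost on leaving out CD8 week 4 replicate 2 (0.32, adjusted p = 0.0510) and on leaving out replicates 1 and 2 of that group (0.32, adjusted p = 0.104). Slc25a20 was called in the long-term groups (0.35 ± 0.08, adjusted p = 0.00204), and at week 1 its difference of 0.17 ± 0.08 was called only on leaving out CD4 week 1 replicate 2 (0.22, adjusted p = 0.0318) and by DESeq2. Cpt1a was not called in either (0.23 ± 0.15 and -0.38 ± 0.15, adjusted p = 0.0535) over all libraries, but the long-term difference passed on leaving out CD4 week 3 replicate 2 or 5 (-0.41 to -0.48, adjusted p = 0.0176 to 0.0480) and under 4 other alternatives.

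In the spiral, Eci2 was higher in CD8 cells with no overlap at either stage (0.43 ± 0.08, adjusted p = 0.000731 at week 1, and 0.43 ± 0.08, adjusted p = 0.000856 in the long-term groups), though its reads may be shared with its close copy Eci3. Hadh went the other way and was lower in every CD8 library at both stages (-0.21 ± 0.07, adjusted p = 0.0240, and -0.41 ± 0.07, adjusted p = 0.000236), with the week 1 call lost on leaving out CD4 week 1 replicate 4 or 5 (-0.19, adjusted p = 0.0573 to 0.0652). Hadha was higher by a small margin (0.20 ± 0.06, adjusted p = 0.0113, and 0.20 ± 0.06, adjusted p = 0.0137), the latter lost on leaving out CD4 week 3 replicate 4 (0.16, adjusted p = 0.0517). The long-term call of Hadha was also lost without CD8 week 4 replicates 1 and 2 (0.19, adjusted p = 0.0635). Hadhb was called in neither (-0.00 ± 0.07 and -0.10 ± 0.07). Decr1 and Etfa were called higher at week 1 (0.38 ± 0.10, adjusted p = 0.00506, and 0.32 ± 0.10, adjusted p = 0.0168). Etfa missed the threshold on leaving out CD4 week 1 replicate 1 (0.26, adjusted p = 0.0542). Acadvl and Acadsb were called higher in the long-term groups (0.32 ± 0.09, adjusted p = 0.00912, and 0.48 ± 0.13, adjusted p = 0.00722), where both calls were lost without CD8 week 4 replicates 1 and 2 (0.17, adjusted p = 0.165, and 0.23, adjusted p = 0.157). Etfb, the beta subunit partner of Etfa, was called higher in the long-term groups (0.45 ± 0.15, adjusted p = 0.0233) and lost its call on leaving out CD8 week 4 replicate 1 or 2 or CD4 week 3 replicate 3 or 5 (0.37 to 0.43, adjusted p = 0.0514 to 0.0671). Without both CD8 week 4 replicates 1 and 2 the difference of Etfb was 0.36 (adjusted p = 0.159).

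The pair of peroxisomal bifunctional enzymes, which carry out the same middle steps on different chains, went opposite ways between the cell types. Hsd17b4, which takes branched and very long chains, read 58.7, 54.2, 36.1, 50.5 and 52.2 CPM at CD8 week 1 and 75.5, 58.9, 78.9, 79.9 and 85.7 CPM at CD4 week 1, 1.51-fold lower in CD8 cells (log2 fold change -0.59 ± 0.13, adjusted p = 0.00167). In the long-term groups it read 41.9, 35.7, 50.7, 52.2 and 54.9 CPM in CD8 and 74.1, 69.3, 71.3, 79.3 and 72.6 CPM in CD4 cells (-0.64 ± 0.13, adjusted p = 0.00100), again with no overlap. Ehhadh was 2.04-fold higher in CD8 week 4 than in CD4 week 3 (1.03 ± 0.20, adjusted p = 0.000680), with every CD8 library above every CD4 library. At week 1 its groups did not overlap either, and the difference was not called in the main fit (0.48 ± 0.20, adjusted p = 0.0610). The week 1 difference of Ehhadh was called by DESeq2 (0.50, adjusted p = 0.0321) and limma-voom (0.48, adjusted p = 0.0369). In edgeR it passed when only the week 1 groups were fitted (0.48, adjusted p = 0.0126). It also passed with title range as a term (0.57, adjusted p = 0.0417). That term marks CD8 replicates 4 and 5 only, so this value sets the range of CD8 replicates 1 to 3 against CD4 cells. It does not correct for the separate title range of the CD4 libraries. Decr2, the peroxisomal dienoyl-CoA reductase, was called higher in the long-term CD8 group (0.40 ± 0.14, adjusted p = 0.0389), a call that 11 of 21 alternative fits lost, among them those leaving out CD8 week 4 replicate 1 or 2 or CD4 week 3 replicate 1, 3, 4 or 5 (0.31 to 0.38, adjusted p = 0.0851 to 0.122). Without both CD8 week 4 replicates 1 and 2 the difference of Decr2 was 0.17 (adjusted p = 0.447).

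Lipa was lower in CD8 cells at both stages, 1.25-fold at week 1 (-0.32 ± 0.10, adjusted p = 0.0177) and 1.25-fold in the long-term groups (-0.32 ± 0.10, adjusted p = 0.0220). The week 1 call was lost on leaving out CD8 week 1 replicate 2 or CD4 week 1 replicate 1 (-0.26 to -0.27, adjusted p = 0.0550 to 0.0600). The long-term call was lost on leaving out CD8 week 4 replicate 1 or 2 (-0.28, adjusted p = 0.0642 to 0.0659). The long-term groups did not overlap, and leaving out both CD8 week 4 replicates 1 and 2 ended that call (-0.21, adjusted p = 0.210). Fabp5 and Pnpla2 were called in neither comparison. Ppard was higher in CD8 cells at both stages (0.52 ± 0.20, adjusted p = 0.0481, and 0.59 ± 0.20, adjusted p = 0.0295), with overlap. Of the alternative fits 12 of 20 lost the week 1 call, among them those leaving out CD8 week 1 replicate 2, 4 or 5 or CD4 week 1 replicate 1, 3, 4 or 5 (0.39 to 0.57, adjusted p = 0.0507 to 0.146). The long-term call was lost by 9 of 21, among them those leaving out CD8 week 4 replicate 1 or 2 or CD4 week 3 replicate 1, 3 or 4 (0.42 to 0.55, adjusted p = 0.0681 to 0.111). Without both CD8 week 4 replicates 1 and 2 the long-term difference of Ppard was 0.25 (adjusted p = 0.405). Ppargc1b was lower in CD8 cells at week 1 with no overlap (-0.47 ± 0.16, adjusted p = 0.0275) and was not called in the long-term groups (-0.19 ± 0.16). The week 1 call ended on leaving out CD8 week 1 replicate 2 or 3 or CD4 week 1 replicate 5 (-0.37 to -0.45, adjusted p = 0.0574 to 0.0827). Acsl6 was lower in long-term CD8 than CD4 cells (-2.07 ± 0.78, adjusted p = 0.0495), at 32 counts over the 5 CD8 libraries against 144 over the 5 CD4 libraries, and 11 of 20 alternative fits lost the call, among them those leaving out CD8 week 4 replicate 1, 2, 4 or 5 or CD4 week 3 replicate 2 or 5 (-1.50 to -2.22, adjusted p = 0.0657 to 0.169). Without both CD8 week 4 replicates 1 and 2 the difference of Acsl6 was -1.38 (adjusted p = 0.251).

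Genes of the pathway outside the 39 were described from 5 further lists. Of 24 tested genes of other mitochondrial oxidation steps, 4 were called higher and 0 lower in CD8 cells (16.7% and 0%, beside 17.1% and 16.4% of all genes). In CD4 cells 2 were higher and 1 lower (8.33% and 4.17%, beside 7.67% and 8.8% of all genes). Echdc2, an enoyl-CoA hydratase domain protein, rose in both (1.18 ± 0.32, adjusted p = 0.00974, and 1.53 ± 0.33, adjusted p = 0.00611), as did Acad12 above. Ivd, the isovaleryl-CoA dehydrogenase of leucine breakdown, rose in CD8 cells (0.28 ± 0.09, adjusted p = 0.0221). Mcee, the methylmalonyl-CoA epimerase, fell in CD4 cells (-0.38 ± 0.10, adjusted p = 0.0172).

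Of 21 tested peroxisomal genes outside the 39, 2 were higher and 3 lower in each cell type (9.52% and 14.3%). The shares of all genes were 17.1% and 16.4% in CD8 cells and 7.67% and 8.8% in CD4 cells. Aldh3a2, a fatty aldehyde dehydrogenase, was higher in both (0.32 ± 0.07, adjusted p = 0.00364, and 0.23 ± 0.07, adjusted p = 0.0388). Phyh, which starts the alpha-oxidation of phytanic acid, was lower in both (-0.49 ± 0.12, adjusted p = 0.00594, and -0.40 ± 0.12, adjusted p = 0.0357). So was Slc25a17, a peroxisomal cofactor carrier (-0.26 ± 0.08, adjusted p = 0.0175, and -0.23 ± 0.08, adjusted p = 0.0467). Hacl1, a lyase of alpha-oxidation, fell in CD8 cells (-0.60 ± 0.18, adjusted p = 0.0162). Crot, which makes carnitine esters for export from peroxisomes, rose there (0.53 ± 0.18, adjusted p = 0.0313). In CD4 cells Scp2, a sterol carrier with thiolase activity, rose (0.39 ± 0.12, adjusted p = 0.0370).

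Of 14 tested genes of uptake, activation and lipolysis outside the 39, 2 were higher and 2 lower in CD8 cells (14.3% each, beside 17.1% and 16.4% of all genes). In CD4 cells 1 was higher and 3 lower (7.14% and 21.4%, beside 7.67% and 8.8%). Dbi, the acyl-CoA binding protein, fell in both (-0.80 ± 0.23, adjusted p = 0.0136, and -0.93 ± 0.23, adjusted p = 0.0138). Abhd6, a monoacylglycerol lipase, rose in both (0.50 ± 0.14, adjusted p = 0.0110, and 0.50 ± 0.14, adjusted p = 0.0223). Abhd5, the activator of the Pnpla2 lipase, rose in CD8 cells (0.49 ± 0.17, adjusted p = 0.0352). Lipe, the hormone-sensitive lipase, fell there (-0.51 ± 0.14, adjusted p = 0.00963). In CD4 cells Acsl3, a synthetase that serves lipid droplets, fell (-1.12 ± 0.29, adjusted p = 0.0164).

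Of 14 tested triglyceride synthesis genes, 2 were higher and 3 lower in CD8 cells (14.3% and 21.4%, beside 17.1% and 16.4% of all genes). In CD4 cells 1 was higher and 1 lower (7.14% each, beside 7.67% and 8.8%). Aqp9, the glycerol channel, rose 2.37-fold in CD8 cells with no overlap, from 63.1 ± 8.898 to 149.6 ± 11.4 CPM (SD, n = 5, log2 fold change 1.25 ± 0.29, adjusted p = 0.00379). It was not called in CD4 cells. In the interaction 0 of the 14 triglyceride synthesis genes were called (smallest adjusted p = 0.272), so that the rise of Aqp9 was not shown to differ between cell types. Agpat2, an acyltransferase of the pathway, rose in both cell types (0.44 ± 0.11, adjusted p = 0.00648, and 0.76 ± 0.11, adjusted p = 0.000548). Gk, glycerol kinase, fell in CD8 cells (-0.68 ± 0.16, adjusted p = 0.00366), as did the low-level Dgat2 (-0.93 ± 0.29, adjusted p = 0.0200) and Gpat3, from 0.367 to 0.0397 CPM in the group means (adjusted p = 0.0455). Gpat4 fell in CD4 cells (-0.21 ± 0.06, adjusted p = 0.0229).

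Of 20 tested regulators of oxidation and mitochondrial genes, 5 were higher and 2 lower in CD8 cells (25% and 10%, beside 17.1% and 16.4% of all genes). In CD4 cells 1 was higher and 2 lower (5% and 10%, beside 7.67% and 8.8%). Foxo1 and Foxo3, transcription factors of quiescence, rose in CD8 cells (0.63 ± 0.10, adjusted p = 0.000186, and 0.68 ± 0.17, adjusted p = 0.00551). So did Esrra, the estrogen-related receptor that works with the PGC-1 coactivators (0.33 ± 0.09, adjusted p = 0.00677). Nrf1 and Tfam, which drive mitochondrial gene expression, fell in both cell types: Nrf1 had log2 fold changes of -0.41 in CD8 and -0.33 in CD4 cells and Tfam of -0.21 and -0.28 (adjusted p = 0.00333, 0.0246, 0.0430 and 0.0207). Nrip1, a corepressor of nuclear receptors, rose in CD4 cells (0.59 ± 0.15, adjusted p = 0.0152).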

How the data were processed

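RNA-seq libraries of 20 mouse T cell samples were analysed from the deposited table of read counts per gene. The authors' read counts are raw and not normalized; STAR and the mm10 genome are named in the submitters' processing notes, and per the file headers featureCounts 1.6.3 counted reads in reverse strand mode against the GENCODE M12 annotation of GRCm38. Gene lengths are the merged exon lengths deposited in the same table. Reads matching several places or genes were not counted, so that genes with near-identical copies (Acaa1a, Eci2) can read low. Samples were grouped by their labels.

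Genes passing edgeR's filterByExpr (13290 of 49671) were fitted with edgeR 4.0.16 in R 4.3.3, with TMM factors, 1 model of 4 group means and quasi-likelihood F tests, and p-values were adjusted by Benjamini-Hochberg over all genes tested. A gene was called at an adjusted p under 0.05. The SE of a log2 fold change was taken as its size over the root of the F statistic. CPM use TMM-scaled library sizes, except the sums over marker and proliferation genes, which use library totals. RPKM divide these CPM by merged exon length in kilobases. Members with full statistics and library values are the 5 most significant called higher and the 5 most significant called lower in each comparison, plus Cpt1a, Cpt2, Slc25a20, Acadvl, Acadm, Hadha, Hadhb, Etfdh, Lipa, Pnpla2, Acsl5, Acsl6, Fabp5 and Ppard; other members are given by range and count. In the 5 pathway lists, up to 3 called genes per direction are named; some that the rule picks are not reported here. The members, the lists and this rule were chosen with earlier results of these data known. Alternatives were RLE, upper-quartile and library-total scaling, DESeq2 1.42.0, limma-voom (limma 3.58.1), other filters, fewer groups, title range as a term or alone, a test against 1.5-fold, and leaving out libraries. The title range term marked CD8 replicates 4 and 5. In CD8 against CD4 it therefore sets the range of CD8 replicates 1 to 3 against the CD4 libraries. Counts in 40 pairs of libraries of 1 group differed by more than sampling noise (chi-square per degree of freedom 5.90 to 141), so all 20 were kept. At 13264302 to 28342449 counts per library, 3 counts over a group correspond to 0.0260 to 0.0321 CPM. This floor covers counting error only, whereas the SD and SE values include the spread between libraries. Promoters came from RefSeq tables of GRCm38.p6; protein sequences were not used here.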

Additional observations from a re-analysis of the deposited data

Results flagged for a closer look

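In each group of 5 libraries, a single library stood apart from the other 4 in 17 of 152 sets of member values (11.2%) by Dixon's test at the 95% level, which chance meets in about 1 in 20 sets. CD4 week 3 replicate 2, which also had the highest proliferation genes of its group, accounted for 7 of them. Acsl5 stood at 334 CPM there (the others at 192 to 232), Acadl at 105 CPM (62.2 to 67.5), Fabp5 at 20.9 CPM (5.53 to 9.07) and Decr2 at 24.1 CPM (15.8 to 16.5). Acox3 was low in the same library at 62.8 CPM (77.5 to 80.3), as were Hsd17b10 at 53.9 CPM (58.0 to 59.2) and Lipa at 58.7 CPM (62.6 to 64.1). CD8 week 1 replicate 3, lowest of its group in proliferation genes, accounted for 5. Acsl1 was high in it at 19.7 CPM (8.77 to 10.6), as was Acadsb at 36.3 CPM (28.8 to 30.9). Acsl5 at 253 CPM (349 to 365), Hadh at 52.2 CPM (60.9 to 64.4) and Etfdh at 34.4 CPM (46.2 to 49.0) were low. Acadl was 226 CPM in CD4 week 1 replicate 2, where the others reached 106 CPM. Within CD8 week 1, Fabp5 stood apart in replicate 1 at 38.0 CPM, Decr1 in replicate 2 at 28.3 CPM and Etfa in replicate 5 at 92.1 CPM. Acsl4 was 204 CPM in CD8 week 4 replicate 4 (157 to 168). The part of proliferation in these values was not tested.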

How the results depend on the processing

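Counts of members called depended on which libraries were used, and the share of all genes called in the same fit also moved. In CD8 week 4 against week 1, 14 were called (37.8%, beside 33.5% of all genes). Replicates 1 to 3 alone gave 1 (2.78%, beside 4.17%) and a test against 1.5-fold 1 (2.7%, beside 3.68%). CD8 week 4 without replicates 1 and 2 gave 8 (21.6%, beside 29.3%). Leaving out 1 library gave 9 to 17 (24.3 to 45.9%, beside 26.9 to 39.8% of all genes). In CD4 week 3 against week 1, 5 were called (13.5%, beside 16.5% of all genes). DESeq2 gave 8 (21.6%, beside 21.2%) and fitting only the CD4 groups 2 (5.41%, beside 9.29%). The 1.5-fold test gave 0, beside 0.88% of all genes. At an unadjusted p under 0.05 it gave 1 member, and the share of all genes there was not taken. Leaving out 1 library gave 3 to 10 (8.11 to 27%, beside 8.11 to 27.1% of all genes). The difference between the cell types went from 0 (beside 0.655% of all genes) to at most 1 when 1 library was left out. That was 2.7% of members, beside 2.36% of all genes, without CD8 week 1 replicate 3. CD8 against CD4 at week 1 called 10 (27%, beside 38.1% of all genes). It gave 0 in the 1.5-fold test by edgeR, beside 10.7% of all genes. Unadjusted, that test gave 2, again with no share of all genes taken. Without 1 library it gave 7 to 13 (18.9 to 35.1%, beside 32.1 to 45% of all genes). The long-term comparison called 14 (37.8%, beside 32.7% of all genes). It gave 1 in the 1.5-fold test (2.7%, beside 10.6%) and 5 without CD8 week 4 replicates 1 and 2 (13.5%, beside 18.9%). Without 1 library it gave 8 to 20 (21.6 to 54.1%, beside 25.5 to 40.4% of all genes). Within replicates 4 and 5 alone, Acadvl (-0.049) and Ppard (-0.60) reversed in CD8 culture; the cause was not tested. Of 4209 member values under alternatives, 3757 kept direction and call, 177 lost and 73 gained a call, 2 reversed and 200 changed sign with no call on either side. Leaving out a library was not run for comparisons it does not enter. The alternative scalings moved the median of all genes by less than 0.1 on the log2 scale, and with library totals all 156 group levels in RPKM moved by less than 1 SD. No paired analysis was possible because the labels give no replicate number, animal or culture that links a week 1 library to a long-term one; replicate numbers here are accession order. Depth limited Ppara, Cpt1c and Acsl6.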
